A study of Mus musculus with 6 samples.

Results

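The genes described here are 38 genes of sugar metabolism, taken from glucose uptake through glycolysis to lactate export, together with the pentose phosphate pathway, glycogen turnover and the hypoxia regulator Hif1a. The list was drawn up with earlier results of these data known. Rows were taken by symbol: in each deposited file, the row whose gene symbol was on the list was used. Each of the 38 symbols had 1 row among the 47561 rows of a file. RNA was sequenced from neutrophils of the bone marrow of male WT mice, sorted by flow cytometry, in 3 Control libraries and 3 libraries from mice given CUMS (chronic unpredictable mild stress, a model in which changing mild stressors are applied) for 4 weeks. Both groups share genotype, sex, tissue and cell type, and differ by label in treatment alone. The sources used here do not give the age of the mice, the sorting markers, whether strand was kept or whether a library stands for 1 mouse, so the p-values measure the spread between these libraries, which may in part be technical.

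Neutrophils draw most of their ATP from glycolysis, which splits glucose to pyruvate and, when pyruvate is reduced by lactate dehydrogenase, to lactate that is exported. The pentose phosphate pathway branches off after glucose is phosphorylated and makes the NADPH that the phagocyte oxidase consumes in the respiratory burst. Glycogen is the store of glucose that these cells build and break down when external glucose is short.

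Transcripts of 5 genes on the route from glucose to exported lactate were lower in CUMS, and no gene of the 38 passed the test on the higher side. The genes that fell were Slc2a1, which encodes the glucose transporter GLUT1, Pfkfb3, which makes the activator of phosphofructokinase, the triose phosphate isomerase gene Tpi1, the lactate dehydrogenase A gene Ldha and Slc16a3, which encodes the lactate exporter MCT4. Falls ranged from 15.4% for Slc16a3 to 31.2% for Slc2a1. All 38 genes passed the filter on low counts and were tested by edgeR's two-sided quasi-likelihood F test with p-values adjusted by the Benjamini-Hochberg method over 15778 genes. At an adjusted p under 0.05, 5 of 38 (13.2%) fell, 0 rose (0 also by DESeq2 and by voom with quality weights) and 33 did not pass. Of all genes tested 2.14% fell and 2.36% rose. Because the list was chosen with earlier results of these data known, the gap between these shares is not independent evidence. In bulk RNA, fewer cells of a type and less RNA per cell cannot be told apart.

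Below the threshold, the differences also lay mostly on the lower side. Of the 38 log2 fold changes 28 (73.7%) were below 0, against 51.6% of all genes tested, and the count was 27 with RLE scaling, where Taldo1 changed sign. Their median was -0.11, and that of all genes was -0.01. In 17 genes (44.7%) all 3 CUMS libraries were below all 3 Control libraries, as in 11.5% of all genes tested, and in 4 genes (Slc2a3, Gpi1, Pgd and Pygl; 10.5%) all 3 were above, as in 11.5% of all genes. An unadjusted p under 0.05 was found for 17 genes on the lower side, where 8.46% of all genes had one, and for 1 on the higher side, Slc2a3, where 8.49% had one. Of these 18 genes 13 did not pass after adjustment, with adjusted p-values from 0.0727 to 0.280. The shares of all genes tested are not matched for level, and the 38 genes were not chosen blind to these data. They include genes of low count, while 33 of the 38 were at 10 CPM or more. Summed over the 38 genes, transcript levels were 19498 to 19859.6 TMM-scaled CPM (counts scaled to a common library size) in Control and 18952 to 19483 CPM in CUMS.

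**Figure D1:**
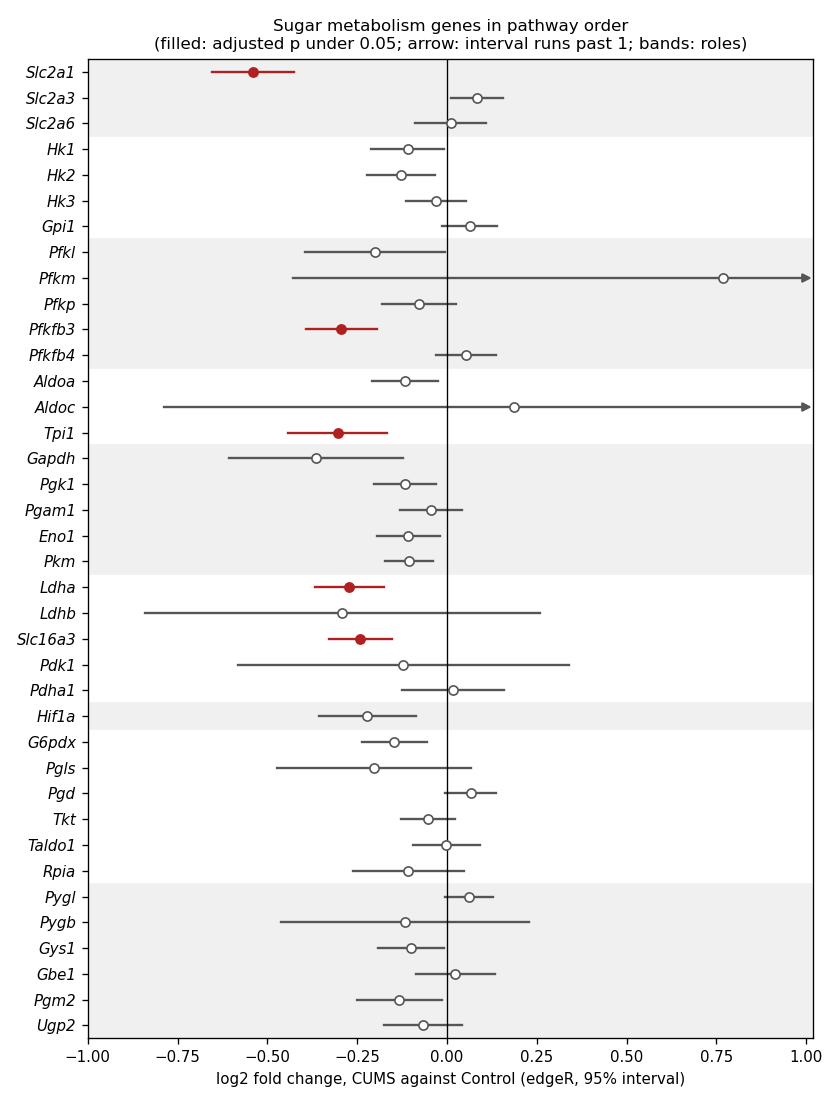
Log2 fold change (CUMS against Control, edgeR) of each of the 38 genes on the horizontal axis, in pathway order from top to bottom, with its 95% interval as a line. Filled points mark the 5 genes with an adjusted p under 0.05, all to the left of 0, and open points the other 33. An arrow marks an interval that runs past the axis.

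The number that passed depended on the libraries and the method. It was 3 without CUMS replicate 3 and between 4 and 7 without each of the other libraries. DESeq2, a stricter filter on low counts and division of the counts by 4 each gave 8, and voom with quality weights gave 10, with the 5 genes above among them each time. Slc2a1, Pfkfb3 and Ldha passed in all 14 alternatives. Slc16a3 missed in 1, without CUMS replicate 3 (adjusted p = 0.0557), and Tpi1 missed in 5, all with 1 library left out.

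**Figure D2:**
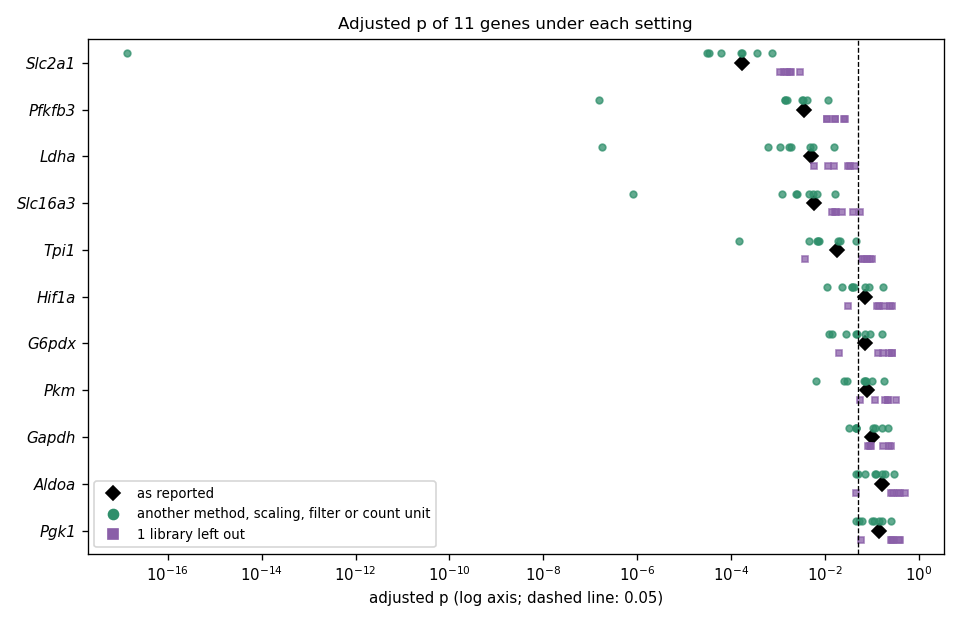
Adjusted p (horizontal, log axis) of the 11 genes that passed the threshold in at least 1 setting. Diamonds are the values reported in the text, circles the other methods, scalings, filters and count units, and squares the fits with 1 library left out, and the dashed line is 0.05. Slc2a1, Pfkfb3 and Ldha stay left of the line throughout, and the 6 genes from Hif1a down have points on both sides of it.

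Promoter sequence is shown for the 5 genes that fell, because the core of the hypoxia response element, which hypoxia-inducible factors bind, is known in promoters of glycolysis genes. Each stretch comes from the 250 bases before a RefSeq start site (GRCm38.p6), 5′ to 3′ on the gene's strand, without bases that GENCODE M21 gives as exon except for up to 5 bases that finish or hold a match at the edge of the exon (3 bases for Slc2a1, and for Slc16a3 the 5 bases of its last ACGTG). Capitals mark ACGTG or GCGTG on either strand (CACGT and CACGC are their reverse complements), and CACGTG, the E-box, holds ACGTG on both strands.
Slc2a1: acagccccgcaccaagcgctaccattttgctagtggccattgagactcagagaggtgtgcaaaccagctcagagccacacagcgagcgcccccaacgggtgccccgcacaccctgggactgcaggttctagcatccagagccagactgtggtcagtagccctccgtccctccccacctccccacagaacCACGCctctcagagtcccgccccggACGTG
Pfkfb3: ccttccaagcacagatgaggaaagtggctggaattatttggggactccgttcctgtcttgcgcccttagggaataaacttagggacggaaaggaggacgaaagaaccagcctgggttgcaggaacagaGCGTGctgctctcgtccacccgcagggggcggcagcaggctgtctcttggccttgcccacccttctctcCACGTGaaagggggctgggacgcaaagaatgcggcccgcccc
Ldha: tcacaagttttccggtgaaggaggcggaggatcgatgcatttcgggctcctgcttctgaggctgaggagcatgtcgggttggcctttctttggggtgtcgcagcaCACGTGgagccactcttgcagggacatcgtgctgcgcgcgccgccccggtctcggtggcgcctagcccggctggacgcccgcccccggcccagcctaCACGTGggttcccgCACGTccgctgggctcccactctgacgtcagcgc
Slc16a3: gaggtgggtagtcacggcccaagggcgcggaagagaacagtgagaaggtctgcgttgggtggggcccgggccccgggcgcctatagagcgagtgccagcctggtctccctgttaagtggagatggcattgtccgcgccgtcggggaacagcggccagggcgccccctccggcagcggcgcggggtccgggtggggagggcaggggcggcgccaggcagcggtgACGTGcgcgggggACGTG
Tpi1: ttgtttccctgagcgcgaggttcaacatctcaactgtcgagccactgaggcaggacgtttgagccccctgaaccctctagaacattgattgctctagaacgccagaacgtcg
The stretches lie at chr4:119108495-119108713 (plus strand) for Slc2a1, chr2:11502102-11502340 (minus strand) for Pfkfb3, chr7:46845554-46845803 (plus strand) for Ldha, chr11:120948817-120949057 (plus strand) for Slc16a3 and chr6:124814297-124814408 (minus strand) for Tpi1.

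For Ldha and Pfkfb3, which have 2 start-site windows each, the window with more matches is printed. The printed Ldha stretch held the most of these letters, with 5 matches to ACGTG counted on both strands, 4 of them from its 2 E-boxes. The other Ldha window (chr7:46846832-46847081) held 0 ACGTG, 1 GCGTG and no E-box. Slc16a3 and the printed Pfkfb3 stretch held 2 each, those of Pfkfb3 from 1 E-box beside 1 GCGTG, and the other Pfkfb3 window (chr2:11553930-11554179) held 1 ACGTG, 0 GCGTG and no E-box. Slc2a1 held 1 ACGTG and 1 GCGTG, and Tpi1 held none of the motifs searched in its whole window of 250 bases. Of the 38 genes 37 matched the table, Slc2a3 being the exception, with 52 windows in all. ACGTG occurred in 19 of the 52 windows and in 16 genes, 12 of which did not pass the test, and in 16.6% of the 32851 windows of all genes. ACGTG or GCGTG occurred in 41 of the 52 windows and in 33 genes, 29 of which did not pass, and in 38.6% of all windows. The windows of all genes were not matched for base composition, and some of the 52 windows overlap one another. These shares are therefore no test of enrichment. A match is a run of letters in this window and no evidence of binding.

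Among the glucose transporters, Slc2a1 fell while the 2 others did not pass. Summed, the 3 transporters stood at 1776 to 1812 CPM in Control and 1825 to 1896 CPM in CUMS, so their total did not fall. In the order of replicates 1 to 3, which is used for all values below, Slc2a1 measured 78.5, 72.7 and 73.6 CPM in Control and 50.4, 52.7 and 51.6 CPM in CUMS. The groups were far apart, with the lowest Control library 20.0 CPM above the highest CUMS library. The mean went from 74.9 ± 3.10 to 51.5 ± 1.16 CPM (SD, n = 3 each). That is -0.54 ± 0.052 (SE) as a log2 fold change, and the edgeR adjusted p was 1.7e-04. The gene lies on chromosome 4 at 119108711 to 119137983 (GRCm38, GENCODE M21), with 10 exons in its principal transcript, and it shares 105 bp of exon with the antisense gene Gm12868, whose reads cannot be separated from those of Slc2a1 if strand was not kept. Slc2a3, which encodes the high-affinity transporter GLUT3, measured 1571, 1549 and 1547 CPM in Control and 1649, 1609 and 1687 CPM in CUMS. Its CUMS libraries were all higher, by a log2 fold change of 0.08 ± 0.033 that did not pass (adjusted p = 0.218). For Slc2a6, the transporter GLUT6, the log2 fold change was 0.01 (adjusted p = 0.95) and its sign turned in 2 of 6 fits with 1 library left out. On the scale of CPM per kb of principal transcript, Slc2a3 made up 80.3% ± 0.43 of the level of the 3 transporters in Control and 82.2% ± 0.71 in CUMS, and Slc2a1 4.69% ± 0.13 and 3.12% ± 0.098 (SD, n = 3 each). With the union of all exons as the length, the share of Slc2a1 was 7.50% ± 0.20 and 5.04% ± 0.15.

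**Figure D3:**
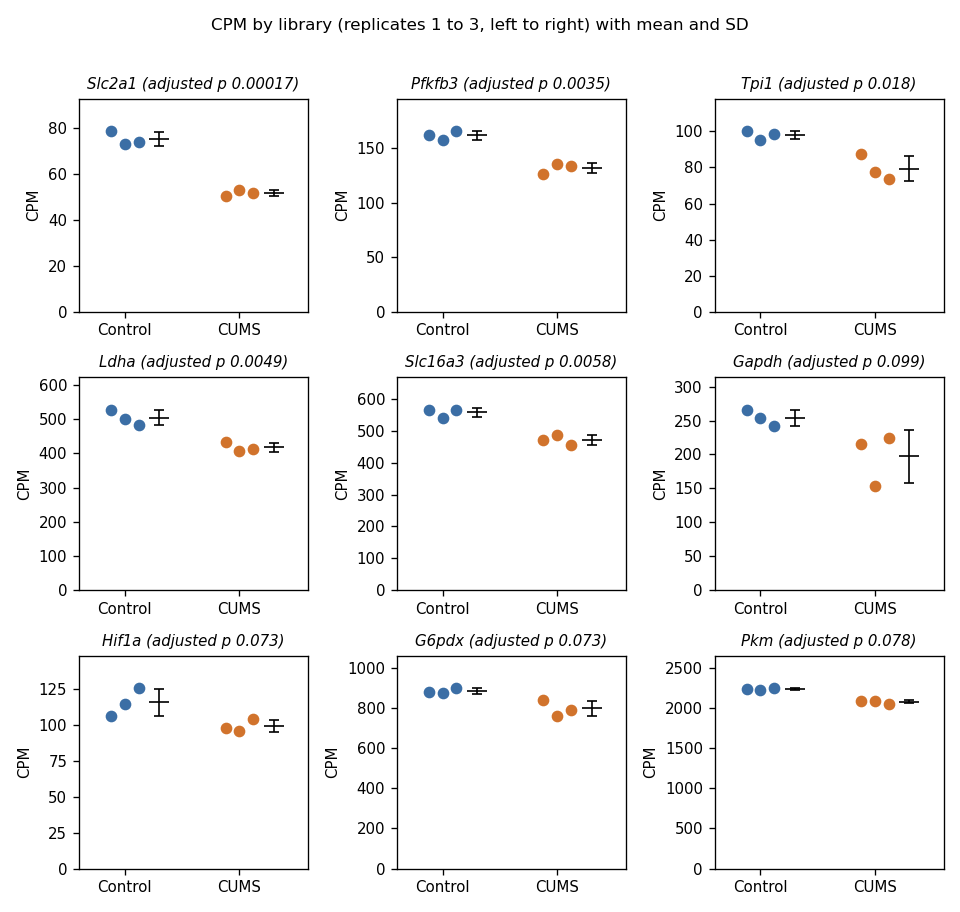
TMM-scaled CPM (vertical, from 0) of 9 genes in each library, Control in blue and CUMS in orange, replicates 1 to 3 from left to right, with mean and SD beside them. In each of the 9 panels all CUMS points lie below all Control points. Gapdh in CUMS replicate 2, at 153 CPM, lies furthest from its group.

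None of the hexokinases, which trap glucose by phosphorylation, passed, nor did Gpi1, the glucose phosphate isomerase gene. Hk1 measured 190.6, 199 and 211 CPM in Control and 185, 189 and 183 CPM in CUMS (log2 fold change -0.11, adjusted p = 0.252). Hk2 measured 178, 186 and 182 CPM in Control and 161, 172 and 167 CPM in CUMS (log2 fold change -0.13, adjusted p = 0.145). In both, all CUMS libraries were lower, with 1.27 CPM between the nearest libraries of the groups for Hk1 and 5.68 CPM for Hk2. Hk3 is the isozyme known from myeloid cells, and it held 80.5% of the hexokinase level per kb in Control and 81.4% in CUMS. It ran from 1118 to 1139.8 CPM in Control and from 1059 to 1153 CPM in CUMS, so the groups overlapped (adjusted p = 0.774). Gpi1 was the highest of the 4 per kb of principal transcript, while Hk3 (303 CPM per kb) was above Gpi1 (207) by the union of exons. Gpi1 measured 1337, 1301 and 1276 CPM in Control and 1389.6, 1361 and 1338 CPM in CUMS. All of its CUMS libraries were above the Control libraries, the closest by 1.05 CPM (log2 fold change 0.06, adjusted p = 0.398). Gpi1 shares 741 bp of exon with the noncoding gene Gm26762 on the other strand.

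The step that commits sugar to glycolysis is set by phosphofructokinase and by the Pfkfb enzymes, which make and remove its activator. Pfkfb3, the form in which kinase activity dominates, measured 162, 157 and 166 CPM in Control and 127, 135 and 134 CPM in CUMS. The groups did not overlap, and the mean went from 162 ± 4.23 to 132 ± 4.67 CPM (SD, n = 3 each). The log2 fold change was -0.29 ± 0.045 (SE), with an edgeR adjusted p of 0.0035. Pfkfb3 lies on chromosome 2 at 11471433 to 11554077 and shares no exon with another annotated gene. Its relative Pfkfb4 measured 459, 469 and 476 CPM in Control and 469.8, 498 and 489 CPM in CUMS, with overlapping groups (log2 fold change 0.05 ± 0.039, adjusted p = 0.565). Pfkfb3 accordingly made up 20.6% ± 0.45 of the summed level per kb of the pair in Control and 17.0% ± 0.12 in CUMS.

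The 3 phosphofructokinase genes did not pass. Pfkp, the platelet form, held 70.7% of their summed level per kb in Control and 72.1% in CUMS, and Pfkl, the liver form, held 28.9% and 27.0%. With the union of all exons as the length, the share of Pfkp was 57.0% and 58.5%. Pfkp shares 748 bp of exon with Pitrm1 on the other strand, whose reads cannot be separated if strand was not kept. Pfkl measured 25.8, 23.9 and 26.6 CPM in Control and 25.0, 21.4 and 20.1 CPM in CUMS, with overlapping groups (log2 fold change -0.20, adjusted p = 0.280). Pfkm, the muscle form, was nearly absent, at 14, 26 and 41 estimated counts in Control and 41, 45 and 72 in CUMS. Its log2 fold change of 0.77 ± 0.55 had a 95% interval from -0.43 to 1.97, so this depth does not fix its direction.

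Of the aldolase step, Aldoa, the muscle-type aldolase found in most tissues, measured 864, 817 and 828 CPM in Control and 810.2, 759 and 745 CPM in CUMS. The CUMS libraries were all lower, with 7.18 CPM between CUMS replicate 1 and Control replicate 2 (log2 fold change -0.12, adjusted p = 0.165). Aldoa passed in 2 of the 14 alternatives. Aldoc, the brain form, stood at 0.432 to 1.69 CPM, and Aldoa held 99.9% of the summed level per kb. Tpi1, which interconverts the 2 triose phosphates that aldolase makes, measured 100.2, 95.5 and 98.5 CPM in Control and 87.4, 77.2 and 73.7 CPM in CUMS. No CUMS library reached the Control range; CUMS replicate 1 was the closest to it. The mean went from 98.1 ± 2.40 to 79.4 ± 7.12 CPM (SD, n = 3 each). The log2 fold change was -0.30 ± 0.063 (SE) and the edgeR adjusted p 0.018. This call ended when any library other than CUMS replicate 1 was left out, with adjusted p-values of 0.0667, 0.0606 and 0.0769 without Control replicates 1 to 3, 0.0931 without CUMS replicate 2 and 0.1 without CUMS replicate 3. Without CUMS replicate 1 the adjusted p was 0.0037. Tpi1 lies on chromosome 6 at 124810586 to 124814296 and shares 34 bp of exon with Spsb2 on the other strand, a gene at no more than 20.0 CPM that did not pass.

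The 5 genes of lower glycolysis, which turn triose phosphate into pyruvate with a gain of ATP, were all below 0. By edgeR none passed, while DESeq2 called 1 lower (Pkm) and voom with quality weights 3 (Gapdh, Pgk1 and Pkm). Gapdh passed in 4 of the 14 alternatives and Pgk1 in 1. Gapdh, the glyceraldehyde phosphate dehydrogenase gene, measured 266, 254 and 242 CPM in Control and 215, 153 and 224 CPM in CUMS. Its CUMS libraries were all lower but uneven, with a coefficient of variation of 19.6%, against a median of 3.51% over the 33 genes of at least 10 CPM (log2 fold change -0.36 ± 0.11, adjusted p = 0.0994). Pgk1, the phosphoglycerate kinase gene, measured 515, 499 and 502 CPM in Control and 484, 449.9 and 464 CPM in CUMS (log2 fold change -0.12, adjusted p = 0.140). Eno1, the enolase gene, measured 947, 936 and 976 CPM in Control and 921, 887 and 846 CPM in CUMS (log2 fold change -0.11, adjusted p = 0.183). Neither gene's groups overlapped. Pkm, the pyruvate kinase gene, had the second highest level per kb of the 38. It measured 2239, 2221 and 2246 CPM in Control and 2088, 2086 and 2053 CPM in CUMS, with 132 CPM between the nearest libraries of the groups. The log2 fold change was only -0.11 ± 0.030 (SE), and the adjusted p of 0.0779 missed the threshold, while DESeq2 gave 0.0259 and voom with quality weights 0.0064. Pkm passed in 3 of the 14 alternatives, and in 0 of the 6 fits with 1 library left out (edgeR adjusted p up to 0.333). Pkm shares 767 bp of exon with Gm49759 on its own strand. Pgam1, the phosphoglycerate mutase gene, had overlapping groups (log2 fold change -0.04, adjusted p = 0.665).

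Most of the counts on Gapdh-like sequence lay outside the Gapdh row. Gapdh has 77 annotated near-identical copies (at least 95% identity over at least 300 bp), 68 of them with a row in the files, and these held 88.3% of the counts of gene and copies together. The highest of them, Gm7336, stood at 231 CPM, near the level of Gapdh itself. With the copies added, the values were 2125, 2031 and 1943 CPM in Control and 1953, 1750.4 and 1801 CPM in CUMS. On this scale the groups overlapped and the variation in CUMS was 5.74%, and the log2 fold change was -0.15 ± 0.047 (SE, adjusted p = 0.114), against -0.36 for the Gapdh row alone. The level of the Gapdh row alone is therefore uncertain. Copies held 17.2% of the counts for Pgam1, 8.15% for Eno1 and 7.75% for Pgk1. For Tpi1 they held 0.428% and for Ldha 0.130%, and both passed with their copies added.

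**Figure D4:**
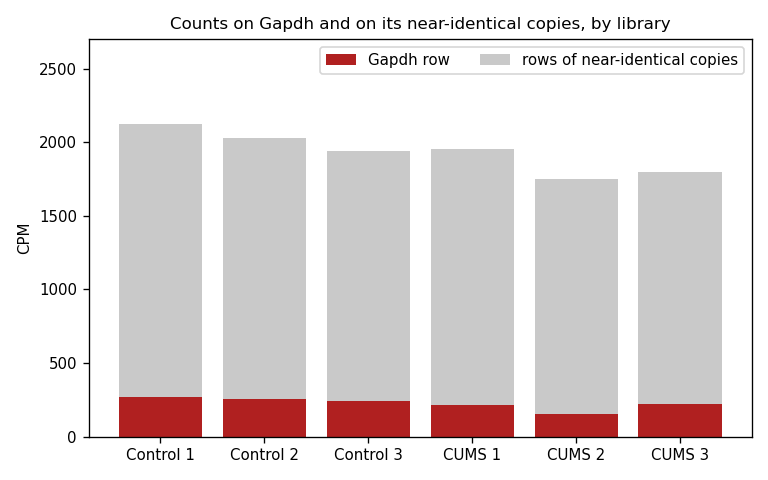
CPM on the Gapdh row (red) and on the rows of its near-identical copies (grey, stacked on top) in each of the 6 libraries, from 0. The copies hold most of each bar. The red part dips in CUMS replicate 2 (153 CPM), and the full bar of that library, at 1750.4 CPM, is the lowest of the 6.

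The end of the route, where pyruvate becomes lactate and leaves the cell, held 2 of the 5 falls. Ldha measured 529, 502 and 484 CPM in Control and 434, 408 and 413 CPM in CUMS. The groups were separate by 50.3 CPM, more than the range within either group. The mean went from 505 ± 22.4 to 418 ± 13.6 CPM (SD, n = 3 each), or by -0.27 ± 0.044 (SE) on the log2 scale (edgeR adjusted p = 0.0049). Ldha lies on chromosome 7 at 46841475 to 46855627 and held 99.4% of the summed level per kb of Ldha and Ldhb in both groups. Slc16a3 measured 566, 541 and 567 CPM in Control and 473, 488 and 456 CPM in CUMS. These groups were also separate, by 53.5 CPM. The mean went from 558 ± 14.6 to 472 ± 15.8 CPM (SD, n = 3 each), or by -0.24 ± 0.040 (SE) on the log2 scale (edgeR adjusted p = 0.0058). Slc16a3 lies on chromosome 11 at 120948480 to 120960868, and neither gene shares exon sequence with another annotated gene.

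The other genes around pyruvate and the regulator of the hypoxia response did not pass. Ldhb, the heart form of lactate dehydrogenase, stood at 1.31 to 2.72 CPM and Pdk1, the kinase that inhibits pyruvate dehydrogenase, at 3.05 to 5.72 CPM. At those levels their 95% intervals ran from -0.84 to 0.26 and from -0.58 to 0.34. Pdha1, a subunit of pyruvate dehydrogenase, had a log2 fold change of 0.02 (adjusted p = 0.943). It shares 603 bp of exon with Map3k15 on the other strand, which rose by 0.45 (adjusted p = 5.4e-04) at 120.3 to 175 CPM, and the effect of this on the Pdha1 count was not tested. Hif1a, the oxygen-regulated subunit of hypoxia-inducible factor, measured 107, 115 and 126 CPM in Control and 98.3, 95.5 and 104 CPM in CUMS. Its groups were separate by only 2.58 CPM (log2 fold change -0.22 ± 0.062, adjusted p = 0.0727), and DESeq2, voom with quality weights, the stricter filter and counts divided by 4 gave adjusted p-values from 0.0113 to 0.0406. Hif1a passed in 6 of the 14 alternatives, and its edgeR adjusted p reached 0.262 with 1 library left out.

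In the pentose phosphate pathway 0 of 6 genes passed by edgeR, 1 (G6pdx) had an unadjusted p under 0.05, and DESeq2 and voom with quality weights each called that 1. G6pdx, which encodes the rate-limiting glucose phosphate dehydrogenase, measured 882, 874 and 902 CPM in Control and 842, 764 and 794 CPM in CUMS. All CUMS libraries were lower, and CUMS replicate 1 was the closest to Control. The log2 fold change was -0.15 ± 0.041 (SE) with an adjusted p of 0.0728, and DESeq2 gave 0.0139. This gene passed in 6 of the 14 alternatives, and its edgeR adjusted p reached 0.271 with 1 library left out. G6pdx shares 418 bp of exon with Ikbkg on the other strand. Pgd, the second dehydrogenase of the pathway, lay on the other side, with all CUMS libraries (1714 to 1776 CPM) above all Control libraries (1668 to 1684 CPM) and a log2 fold change of 0.07 ± 0.032 (adjusted p = 0.328). Taldo1, the transaldolase gene and the highest of the 6 per kb, measured 1071, 998 and 1038 CPM in Control and 1085, 1023 and 995 CPM in CUMS, with overlapping groups (log2 fold change -0.00, 95% interval -0.09 to 0.09). The transketolase gene Tkt, the ribose phosphate isomerase gene Rpia and the lactonase gene Pgls gave -0.05, -0.11 and -0.20, none past the threshold. Pgls varied most of these, by 17.1% in CUMS, and shares 776 bp of exon with Fam129c on its own strand.

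In glycogen turnover 0 of 6 genes passed by edgeR, DESeq2 or voom with quality weights, and 2 (Gys1 and Pgm2) had an unadjusted p under 0.05. Pygl, the liver-type glycogen phosphorylase that releases glucose phosphate from glycogen, had the highest level of the 38 genes per kb of principal transcript, at 906 CPM per kb, and the third highest by the union of exons, at 371. It measured 2529, 2478 and 2511 CPM in Control and 2656, 2596 and 2589.5 CPM in CUMS. The CUMS libraries were all higher, by a log2 fold change of 0.06 ± 0.031 (adjusted p = 0.354). Gys1, the glycogen synthase gene, measured 113.5, 113.8 and 115 CPM in Control and 105, 108 and 107 CPM in CUMS (log2 fold change -0.10, adjusted p = 0.243). Pgm2, a phosphoglucomutase gene, measured 48.5, 51.5 and 49.9 CPM in Control and 46.4, 45.8 and 44.6 CPM in CUMS (log2 fold change -0.13, adjusted p = 0.229). Both had separate groups on the lower side. The symbols Pgm1 and Pgm2 have been exchanged between annotation releases, so the locus behind the Pgm2 row is uncertain. The branching enzyme gene Gbe1, the UDP-glucose pyrophosphorylase gene Ugp2 and the brain phosphorylase gene Pygb gave 0.02, -0.07 and -0.12, none past the threshold. Pygl held 99.9% of the summed level per kb of Pygl and Pygb. Another phosphorylase gene, Pygm, is not among the 38 and was outside this sum, at 3.66 to 5.02 CPM.

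**Figure D5:**
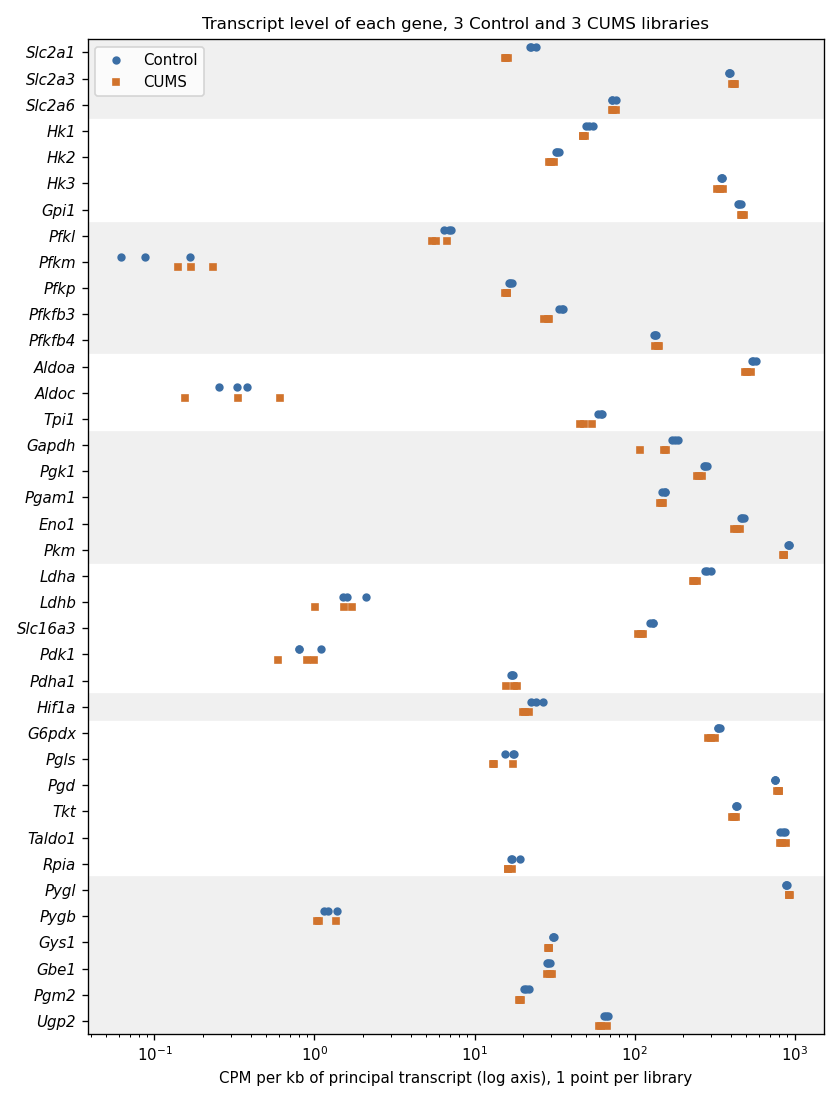
Level of each of the 38 genes in CPM per kb of principal transcript (horizontal, log axis), 1 point per library, Control as blue circles and CUMS as orange squares. Levels span from 0.143 (Pfkm) to 906 (Pygl) as means over the 6 libraries. The offset between the groups is visible for Slc2a1 and small against the differences between genes.

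Levels per kb showed which form of each step the neutrophils carried. After Pygl the highest means over the 6 libraries were those of Pkm (886 CPM per kb), Taldo1 (842), Pgd (773), Aldoa (532), Gpi1 (462) and Eno1 (453). This order depended on the length used: by the union of exons it was Taldo1 (477), Pkm (431), Pygl (371), Hk3 (303), Aldoa (276), G6pdx (274) and Pgd (266), with Gpi1 (207) and Eno1 (171) lower. Aldoc, Pdk1, Pygb and Ldhb stood with Pfkm at the bottom, between 0.143 and 1.58 CPM per kb. Of the genes that fell, Ldha stood at 261, Slc16a3 at 119, Tpi1 at 55.2, Pfkfb3 at 31.7 and Slc2a1 at 19.4 CPM per kb, so none of the 7 highest genes by either length was among them. Of the 28 genes of at least 10 CPM that did not pass, 23 had a 95% interval of the log2 fold change within -0.25 to 0.25. Missing the threshold does not show that they were equal.

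Of 119 other genes of these pathways, which hold further isozymes, regulators, known hypoxia targets and glucose sensors, 89 were tested. By edgeR 2 fell and 1 rose, where 2.14% of all genes tested fell and 2.36% rose, and the median log2 fold change was -0.02. Mpc2 (log2 fold change -0.27, edgeR adjusted p = 0.0853) was called lower by DESeq2 and by voom with quality weights. Ppp1r3b, which encodes a subunit that brings protein phosphatase to glycogen, measured 259.7, 268 and 261 CPM in Control and 209, 208 and 215 CPM in CUMS. The groups were separate, and the log2 fold change was -0.32 ± 0.039 (SE) with an edgeR adjusted p of 7.4e-04. Ldhc, the testis form of lactate dehydrogenase, starts 5575 bp beyond the end of Ldha on the same strand of chromosome 7. It measured 4.50, 4.82 and 4.38 CPM in Control and 2.53, 1.70 and 1.97 CPM in CUMS, a log2 fold change of -1.15 ± 0.19 (SE, adjusted p = 0.0055). Of 20 hypoxia pathway genes and targets tested besides the 38, 0 passed by edgeR, 1 on each side had an unadjusted p under 0.05, and the median was -0.02, while DESeq2 called Ero1a lower and Egln3 higher and voom with quality weights called Ero1a. Of 13 glucose sensing and energy regulators 0 passed by edgeR, with 0 lower and 2 higher at an unadjusted p under 0.05, and DESeq2 and voom each called 1 (Txnip, higher).

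Bpgm, the enzyme that makes the bisphosphoglycerate of red cells, rose from 14.0, 19.6 and 12.98 CPM in Control to 29.2, 25.4 and 24.1 CPM in CUMS (log2 fold change 0.75 ± 0.14, edgeR adjusted p = 0.0101). Its call ended without Control replicate 3 (0.64, adjusted p = 0.0542). Of 15 erythroid markers tested 9 rose, with a median log2 fold change of 0.83, and their summed level was 1319 to 1890.3 CPM in Control and 2542 to 3028 CPM in CUMS. No erythroid marker was at 0 in every library. Their part in the Bpgm result was not tested.

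Genes of cell division moved in the same direction as the 5 sugar genes that fell. Of 22 tested 14 fell, all 22 were below 0 with a median of -0.68, and their summed level was 561 to 597 CPM in Control and 390.4 to 415 CPM in CUMS. Mki67, a marker of dividing cells, measured 217, 230 and 234 CPM in Control and 172, 180.4 and 187 CPM in CUMS. Of 14 neutrophil markers, 2 fell (Camp and Ltf) and 1 rose (Mmp9) by edgeR, with a median of -0.07. DESeq2 called Ltf lower and Mmp9 and Csf3r higher. With voom and quality weights S100a8, Camp and Ltf were lower and Mmp9 and Csf3r higher. The 14 summed to 134662 to 146553 CPM in Control and 115482 to 142293 CPM in CUMS. In the 9 granulocyte progenitor markers tested, 2 rose (Elane and Mpo, both under 8 CPM), with a median of 0.31 and sums of 83.8 to 86.9 CPM in Control and 84.8 to 94.9 CPM in CUMS. Of these 9, 7 lay above 0 and 2 below. The 2 were Myb (mean 35.9 CPM in Control and 30.4 CPM in CUMS, log2 fold change -0.24, edgeR adjusted p = 0.159) and Cd34 (-1.16, at no more than 0.290 CPM). Of the markers of other lineages, the 14 of B and plasma cells (1 rose and 1 fell, 13 above 0, median 0.30) summed to 258 to 265 CPM in Control and 287 to 294 CPM in CUMS. The 14 of monocytes and macrophages (2 rose, median 0.18) summed to 780.5 to 841 and 753 to 847 CPM. The 14 of eosinophils, basophils and mast cells (the eosinophil genes Prg2 and Epx rose, median 0.05) summed to 53.5 to 61.6 and 56.8 to 66.5 CPM. The 11 of T and NK cells summed to 5.73 to 7.77 and 5.55 to 8.29 CPM. Of these 11, 7 were tested (median 0.01), 0 passed by edgeR, DESeq2 or voom, and 0 had an unadjusted p under 0.05. Within that eosinophil, basophil and mast cell list, Gata2 (-1.52), Ms4a2 (-1.58) and Prss34 (-0.41) had all CUMS libraries lower without passing by edgeR (adjusted p = 0.0526, 0.0682 and 0.230), and voom with quality weights called Gata2 lower. The part of dividing cells, progenitors or other cell types in the fall of the 5 genes was not tested.

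The libraries held 78845457 to 109757558 estimated counts, or roughly 19711364 to 27439390 read pairs if 1 pair is worth about 4, a value inferred from the counts. Over the 33 genes of at least 10 CPM the median coefficient of variation was 2.44% in Control and 3.51% in CUMS, with the largest values for Hif1a in Control (8.31%) and Gapdh in CUMS (19.6%). CUMS replicate 1 was the highest CUMS library in 19 of the 38 genes, and CUMS replicate 3 the lowest in 16.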

How the data were processed

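Per the submitters' processing notes, HISAT2 2.1, featureCounts 1.6.4, cutadapt 1.16.5, bcl2fastq 2.19 and DESeq2 2.11.40.6 were used, with the build mm10; per the labels' protocols, TruSeq libraries from 1 µg of total RNA were read as pairs of 150 bp. The deposited values are estimated counts per gene (1 read pair was worth about 4, from an excess of multiples of 4; 1588 rows carry identifiers of assembled transcripts). The unit on which the deposited counts rest is not given in the sources used here.

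From these, edgeR 4.0.16 (R 4.3.3) fitted all 15778 genes kept by filterByExpr, with TMM scaling, group as the only term and a threshold of 0.05 on the Benjamini-Hochberg adjusted p. CPM are TMM-scaled, SE derive from the F statistic, and SD are over 3 libraries. The fit was checked on simulated data with changed genes of at least 1 CPM. It recovered 81% of 2-fold and 37.7% of 1.3-fold changes, and 6.32% of its calls were false. Most of the 38 genes lay higher (33 at 10 CPM or more), so these shares do not give the recovery for them. Changes below 1.3-fold, as in most of the 38 genes, were not simulated and could be missed. Whether replicate numbers pair the libraries is not given in the sources used here. Alternatives were DESeq2 1.42.0, voom with quality weights (limma 3.58.1), RLE scaling, 2 filters, counts divided by 4, a replicate block and each library left out; the length definition and the addition of near-identical copies were chosen after seeing the data. Lengths, exons and copies come from GENCODE M21 (GRCm38), promoters from RefSeq. Library values were printed for genes past the threshold, with an unadjusted p under 0.05, or highest per kb of principal transcript in their role. The 38 genes and the other lists were chosen with earlier results of these data known.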

Additional observations from a re-analysis of the deposited data

How the results depend on the processing

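With each library left out in turn, the number of the 38 genes that fell ranged from 3 to 7 and the number that rose was 0 in each alternative run. It was 10 with voom and quality weights and 8 each with DESeq2, the stricter filter (1 CPM in 3 libraries) and counts divided by 4, and all 5 genes were among them. The other pathway genes that fell numbered 4 under each of these settings and 2 to 3 with 1 library left out. Those that rose numbered 3 with DESeq2, 2 with voom and 0 to 1 with 1 library left out (0 without Control replicate 3). Over all genes tested, 710 passed, against 1239 with DESeq2, 462 without a filter, and 305 (without CUMS replicate 3) to 697 with 1 library left out. Whether same-numbered libraries form pairs is not given in the sources used here. Their deviations from the group means correlated at 0.0085, 0.0034 and -0.026, and not every library correlated best with its own number. With 3 libraries per group these correlations cannot exclude pairing. With the replicate block 10 of the 38 genes fell, with 4 other pathway genes lower and 2 higher. Signs turned only for genes near 0 or of low count: Slc2a6 gave -0.0038 and -0.0119 without Control replicate 2 or CUMS replicate 2 (highest with 1 library left out 0.0390), Aldoc -0.1888 with voom and -0.3865 without CUMS replicate 1 (highest 0.5558), Pdk1 0.0468 and 0.0723 without Control or CUMS replicate 1 (lowest -0.2710), Pdha1 -0.0325 without CUMS replicate 3 (highest 0.0827) and Gbe1 -0.0041 without CUMS replicate 1 (highest 0.0560). Taldo1 gave 0.0038 with RLE scaling, 0.0061 without a filter, 0.0037 with DESeq2, 0.0244 and 0.0022 without Control replicates 1 or 3, and 0.0081 and 0.0283 without CUMS replicates 2 or 3 (lowest -0.0368, without CUMS replicate 1). For the moved counts the cause was not tested. DESeq2 gave no adjusted p for Pfkm and Aldoc, whose counts limit the precision. With the union of exons as length, isozyme shares kept their leading form, but levels per kb were lower and their order changed.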
